A study of Mus musculus with 17 samples.

Results

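The 10 genes described here carry glutamate and glutamine across the membranes of astrocytes, or interconvert them, and were chosen by symbol from the 26556 genes counted in all libraries. They are the SLC1 carriers *Slc1a1*, *Slc1a2*, *Slc1a3*, *Slc1a4*, and *Slc1a5*, the glutamine carriers *Slc38a3* and *Slc38a5*, the enzymes *Glul* and *Glud1*, and the cystine-glutamate exchanger *Slc7a11*. Each symbol matched 1 Ensembl identifier, and all 10 passed the filter on low counts. Their levels were compared over 17 bulk RNA-seq libraries of astrocytes from FVB mice at postnatal day 7 with the genotype *Gfap*::GFP, in which the *Gfap* promoter drives the green fluorescent protein by which the cells were sorted. The cortex, which was the primary somatosensory cortex, gave 4 libraries. The thalamus gave 13, of which 5 came from the dorsolateral geniculate nucleus (dLG), 4 from the ventral posteromedial nucleus (VPM), and 4 from the ventral division of the medial geniculate nucleus (MGv). The labels name no treatment and no other allele for any group, all groups shared a papain dissociation in medium with the glutamate receptor blockers kynurenic acid and APV, each library pooled 4 brains, and no single animal can be followed.

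Astrocytes clear glutamate released at synapses with the sodium-coupled carriers GLAST (*Slc1a3*) and GLT-1 (*Slc1a2*), turn it into glutamine with glutamine synthetase (*Glul*), and release glutamine through system N carriers such as *Slc38a3* for neurons to make glutamate again. Glutamate dehydrogenase (*Glud1*) diverts part of the glutamate into the mitochondrial citric acid cycle. In the postnatal forebrain GLAST is known as an early astroglial carrier and GLT-1 as one whose level rises as astrocytes mature.

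The totals ran from 18213687 to 50366363 counts per library, and the next highest was 21519981. In dLG replicate c 17749 genes had reads, against 21052 to 23365 genes in each of the other libraries. Levels are given as counts scaled to library size (CPM) with edgeR’s TMM factors, and 3 counts correspond to between 0.0596 and 0.165 CPM, a floor that covers counting error only. The 10 astrocyte markers checked were detected in all groups and summed to 8346 to 9044 CPM in cortical libraries and 5124 to 14465 CPM in thalamic ones. Between regions *Aldoc* was lower (-1.04 on the log2 scale) and *S100b* higher (0.84) in the thalamus. *Gfap*, whose promoter drives the reporter, was at 8.98 to 19.3 CPM in the VPM, 450.4 to 538 CPM in the cortex, 78.3 to 1310.0 CPM in the dLG, and 36.1 to 5525 CPM in the MGv. Markers of the oligodendrocyte lineage summed to 6982 to 8522 CPM in cortical libraries and 6498 to 10358 CPM in thalamic ones. Their median sum was below that of the astrocyte markers in the cortex (7003 against 8570 CPM). In the thalamus it was above it (8658 against 7535 CPM). Neuronal markers summed to 1024 to 1309 and 611 to 1966 CPM. Microglial markers summed to 10.8 to 19.7 CPM in cortical libraries and 6.69 to 91.9 CPM in thalamic ones, endothelial markers to 5.6 to 11.2 and 2.79 to 49.2 CPM, markers of mural cells and fibroblasts to 54.2 to 94.0 and 13.4 to 42.1 CPM, and ependymal markers to 3.93 to 108 and 1.28 to 9.64 CPM. The part that these other cells have in the results was not tested, and in bulk samples fewer cells of a type and less RNA per cell cannot be told apart.

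In thalamic astrocytes 6 of the 10 genes were lower than in cortical astrocytes and none was higher. Both main glutamate carriers, glutamine synthetase, the glutamine carrier *Slc38a3*, the neutral amino acid carrier *Slc1a4*, and *Glud1* fell, by 3.3-fold for *Slc1a3*, 3.19-fold for *Glul*, 2.24-fold for *Slc1a2*, 2.04-fold for *Slc38a3*, 2.02-fold for *Slc1a4*, and 1.34-fold for *Glud1*. *Slc1a1*, *Slc1a5*, *Slc38a5*, and *Slc7a11* did not pass the test. These calls come from edgeR’s quasi-likelihood test at a Benjamini-Hochberg adjusted p under 0.1 over 17856 genes, of which 11.4% were called in either direction and 5.93% as lower. For 5 of the 10, namely all those that fell except *Glud1*, every thalamic library lay below every cortical one, which held for 3.1% of all genes tested. The median log2 fold change (log2FC) was -0.72 over the 10 genes and 0.02 over all genes tested. The 10 genes together took 8569 to 9212 CPM of each cortical library and 2704 to 4056 CPM of each thalamic one.

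**Figure D1:**
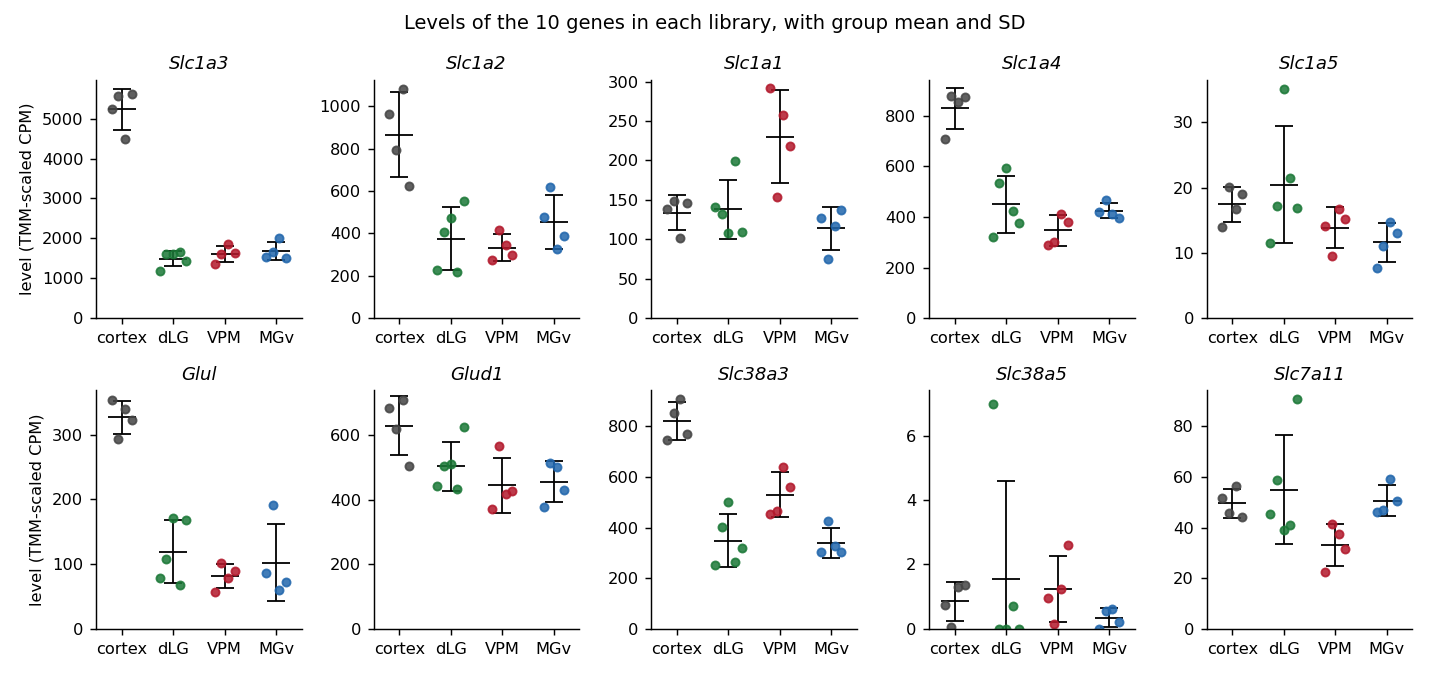
Level of each of the 10 genes (TMM-scaled CPM, linear axis from 0) in every library of the cortex, dLG, VPM, and MGv, with points for libraries and bars for the group mean and SD, cut at 0. For *Slc1a3*, *Slc1a2*, *Slc1a4*, *Glul*, and *Slc38a3* all cortical points lie above all thalamic ones, and for *Slc1a1* the VPM points are the highest group.

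*Slc1a3*, which encodes GLAST, showed the clearest difference. It lies on chromosome 15 (8634124 to 8710764, minus strand, GRCm38), in 13 merged exons, and no other annotated gene overlaps them. Its level was 5249, 5559, 4499.7, and 5621 CPM in cortical replicates a to d. In the dLG it was 1176, 1609.6, 1613, 1649.9, and 1429 CPM in replicates a to e. The VPM gave 1346, 1621, 1848, and 1626 CPM and the MGv 1534, 1668, 2005, and 1518 CPM in replicates a to d. The lowest cortical library was thus above the highest thalamic one, MGv replicate c, and the 3 nuclei overlapped with one another. Thalamus against cortex gave a log2FC of -1.72 ± 0.11 SE, adjusted p = 1.78e-09, with a 95% interval of -1.95 to -1.49. The 3 nuclei, which share the cortical libraries, gave -1.81 for the dLG, -1.70 for the VPM, and -1.64 for the MGv, with adjusted p of 1.77e-08, 1.44e-07, and 2.45e-07.

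*Slc1a2*, which encodes GLT-1, was lower per length of exon and more variable within groups. Its gene spans 102658659 to 102790784 on the plus strand of chromosome 2, and 1.44% of its exonic length overlaps the antisense gene *Gm13872*. Cortical replicates a to d held 964, 793, 1082, and 622 CPM. The dLG held 228, 406, 471, 219, and 552 CPM in replicates a to e, the VPM 276, 415, 347, and 296 CPM, and the MGv 479, 621, 326, and 387 CPM. The groups came close to touching, since the lowest cortical library (d) lay just above the highest thalamic one (MGv replicate b). Between regions the log2FC was -1.16 ± 0.22 SE, adjusted p = 0.00141 by edgeR (95% interval -1.61 to -0.71). The nuclei gave log2FCs of -1.21 (dLG, adjusted p = 0.00414), -1.38 (VPM, adjusted p = 0.00325), and -0.93 (MGv, adjusted p = 0.0358) in edgeR’s test. The MGv call did not hold without cortex replicate c, MGv replicate c, or MGv replicate d (adjusted p from 0.102 to 0.106).

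*Slc1a1* encodes EAAC1, the glutamate and cysteine carrier best known from neurons, and it did not follow the other carriers. It lies on chromosome 19 (28835049 to 28913960, plus strand), and 31.9% of its exonic length overlaps the antisense gene *4430402I18Rik*, which was counted at 5.9 to 6.86 CPM in cortical libraries and 3.29 to 9.29 CPM in thalamic ones. Whether reads were counted by strand is not stated in the sources used here. How many reads the overlap added to or took from the count of *Slc1a1* is therefore unknown. Cortical replicates a to d held 138, 149, 102, and 147 CPM of *Slc1a1* and VPM replicates a to d 291, 153, 258, and 218 CPM. In the dLG the replicates a to e gave 141, 132, 108, 199, and 109 CPM, and the MGv gave 127, 74.9, 117, and 137 CPM. All VPM libraries lay above all cortical and all MGv libraries, the lowest VPM library (b) by little, while the dLG and MGv libraries overlapped with the cortex. The thalamus as a whole did not pass the test (log2FC of 0.25 ± 0.27 SE, adjusted p = 0.657, 95% interval -0.31 to 0.81). The VPM against the cortex did, with a log2FC of 0.78 ± 0.22 SE, adjusted p = 0.0408, which is 1.72-fold higher. The dLG and MGv gave 0.04 and -0.23 (adjusted p = 0.929 and 0.569). The VPM call rests on few libraries, since without cortex replicate c, VPM replicate a, or VPM replicate c the adjusted p was between 0.121 and 0.168.

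Transcripts of the 3 glutamate carriers can be set side by side only per length, as CPM per kb of exon. Summed in this way, *Slc1a1*, *Slc1a2*, and *Slc1a3* gave 695 ± 49.9 CPM per kb in the cortex (SD, n = 4) and 235 ± 25.9 CPM per kb in the thalamus (SD, n = 13). *Slc1a3* made up 88.1 ± 2.69% of this sum in the cortex and 79.2 ± 3% in the thalamus. *Slc1a2* made up 9.62 ± 2.89% and 12.5 ± 3.77%, which overlapped. The share of *Slc1a1* was 1.98 to 2.47% in the cortical libraries and 3.6 to 16.5% in the thalamic ones, so that no thalamic library fell within the cortical range. A share also rises where the rest of the sum is lower. *Slc1a1* itself did not pass edgeR’s test between regions (log2FC of 0.25, adjusted p = 0.657), and in the MGv its log2FC against the cortex was -0.23. By nucleus that share was 7.69 ± 2.26% for the dLG, 11.7 ± 3.62% for the VPM, and 5.71 ± 1.69% for the MGv. The ratio of *Slc1a3* to *Slc1a2* per kb, 9.87 ± 3.24 in the cortex and 6.89 ± 2.22 in the thalamus, overlapped between the regions. These shares are descriptions and carry no test.

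**Figure D2:**
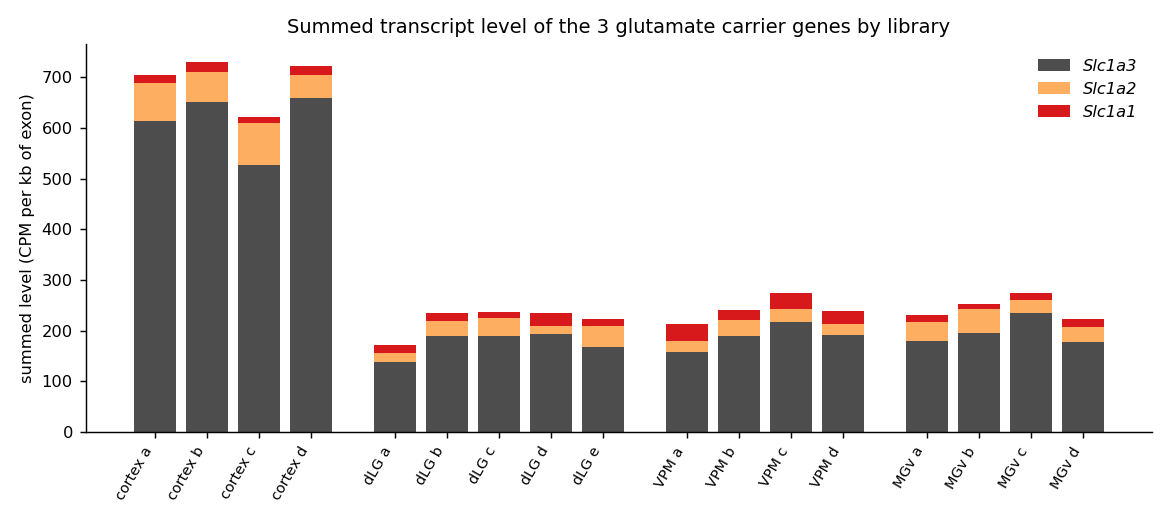
Summed transcript level of *Slc1a3*, *Slc1a2*, and *Slc1a1* in each library, as CPM per kb of exon (stacked bars from 0, 1 bar per library, letters are replicates). The cortical bars reach 622 to 729.6 CPM per kb and the thalamic bars 172 to 274, with *Slc1a3* the tallest segment in all 17.

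The stretches before the starts of the SLC1 carriers are shown because *Slc1a3*, *Slc1a2*, and *Slc1a4* fell together in all nuclei and *Slc1a1* did not. They are up to 250 bases upstream of the RefSeq start (GRCm38.p6), 5′ to 3′ on the gene’s strand, and leave out any bases in annotated exons. That of *Slc1a2* lies inside the Ensembl gene span, outside its exons. Capitals mark matches, on either strand, to 6 motifs. The TATA box was searched for as TATAAA. The sequence named for its own letters, the CCAAT box, was searched for as such. For the GC box of many promoters the letters were GGGCGG. The NFI site was taken as TTGGC and can overlap a CCAAT box on the opposite strand. Sox factors were represented by the letters ACAATG, and the Otx homeodomain factors by TAATCC.
*Slc1a3*, chr15:8710808-8711057, minus strand: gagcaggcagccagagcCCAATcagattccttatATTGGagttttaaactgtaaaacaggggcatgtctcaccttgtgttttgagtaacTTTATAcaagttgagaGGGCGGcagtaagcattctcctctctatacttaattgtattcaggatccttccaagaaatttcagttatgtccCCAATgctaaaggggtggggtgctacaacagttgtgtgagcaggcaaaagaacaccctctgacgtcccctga
*Slc1a2*, chr2:102706188-102706355, plus strand: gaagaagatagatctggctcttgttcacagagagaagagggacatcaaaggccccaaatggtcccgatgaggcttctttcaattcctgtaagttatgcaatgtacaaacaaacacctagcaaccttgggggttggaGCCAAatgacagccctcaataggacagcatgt
*Slc1a4*, chr11:20332714-20332963, minus strand: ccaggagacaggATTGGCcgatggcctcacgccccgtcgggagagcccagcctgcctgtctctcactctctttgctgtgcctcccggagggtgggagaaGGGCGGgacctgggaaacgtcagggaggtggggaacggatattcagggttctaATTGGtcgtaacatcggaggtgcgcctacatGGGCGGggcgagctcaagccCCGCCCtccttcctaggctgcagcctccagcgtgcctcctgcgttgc
*Slc1a1*, chr19:28834885-28835048, plus strand: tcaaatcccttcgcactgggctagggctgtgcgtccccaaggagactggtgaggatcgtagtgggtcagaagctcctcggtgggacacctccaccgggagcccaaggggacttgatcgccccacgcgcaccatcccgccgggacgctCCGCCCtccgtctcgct
The *Slc1a3* stretch holds 3 CCAAT boxes, 1 TATA box, and 1 GC box, and that of *Slc1a4* holds 2 CCAAT boxes, 3 GC boxes, and 1 NFI site. That of *Slc1a2* (168 bases) holds 1 NFI site. That of *Slc1a1* (164 bases) holds 1 GC box, and the full 250 bases of *Slc1a1* also hold 1 NFI site. Among 32851 RefSeq promoters, 12.4% hold a TATA box in the full 250 bases, 33.8% a CCAAT box, and 32.7% a GC box. An NFI site lies in 41.5%, a Sox site in 10.7%, and an Otx site in 6.25%, and the matches are descriptions only. No Sox or Otx match lies in these windows. RefSeq promoters were at hand for 8 of the 10 genes and not for *Slc1a5* and *Slc38a3*, and the *Glul* window overlaps exons and is not shown.

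*Slc1a4* and *Slc1a5* encode ASCT1 and ASCT2, exchangers of neutral amino acids such as serine, alanine, and, for ASCT2, glutamine. *Slc1a4* (chromosome 11, 20302180 to 20332713, minus strand) held 708, 879.6, 856, and 874 CPM in cortical replicates a to d. It held 321.6, 533, 595, 425, and 377 CPM in the dLG, 290.1, 303, 413, and 382 CPM in the VPM, and 419, 468, 413, and 398 CPM in the MGv, and none of these reached the cortex. Between regions the log2FC was -1.01 ± 0.15 SE, adjusted p = 9.46e-05 by edgeR, and the nuclei gave -0.88, -1.26, and -0.97 for dLG, VPM, and MGv (adjusted p = 0.0011, 7.62e-05, and 0.00102). *Slc1a5* (chromosome 7, 16781340 to 16798274, plus strand) was low in all groups. Cortical libraries held 14 to 20 CPM and thalamic ones 7.65 to 35.1 CPM, with the highest value in dLG replicate c, and the region log2FC was -0.15 (95% interval -0.72 to 0.42, adjusted p = 0.811 in edgeR’s test). For the MGv it was -0.59 (95% interval -1.19 to 0.02, adjusted p = 0.216).

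*Glul* encodes glutamine synthetase, the enzyme that makes glutamine from glutamate and ammonia in astrocytes. It lies at 153899944 to 153909723 on the plus strand of chromosome 1, and 3.49% of its exonic length overlaps *Teddm2* on the other strand. Cortical replicates a to d held 353, 293, 339.5, and 323 CPM. The dLG held 79, 108, 172, 67.9, and 169 CPM, the VPM 56.9, 102, 78.6, and 89 CPM, and the MGv 86.8, 191, 60.9, and 71.8 CPM. All 13 thalamic libraries lay below the cortex, but the dLG and MGv were spread, with dLG replicates c and e and MGv replicate b well above the others of their nucleus. Between regions the log2FC was -1.67 ± 0.25 SE, adjusted p = 1.67e-04 by edgeR, with -1.46, -2.0, and -1.67 for dLG, VPM, and MGv (adjusted p = 0.00384, 5.96e-04, and 0.00277). The mouse genome holds a processed copy of the gene, *Glns-ps1*, which was counted at 15.8 CPM on average in cortical and 4.59 CPM in thalamic libraries, and reads could be split between the copies, so the level of *Glul* is uncertain.

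*Glud1*, the mitochondrial glutamate dehydrogenase (chromosome 14, 34310727 to 34345265, plus strand), showed the smallest of the called differences. The cortex held 685, 619, 707, and 504 CPM, the dLG 442, 505, 509, 434, and 624 CPM, the VPM 370.4, 567, 417, and 425 CPM, and the MGv 377, 514, 501, and 429.9 CPM. Cortex replicate d lay within the thalamic range, and the regions overlapped. Between regions the log2FC was -0.42 ± 0.13 SE, adjusted p = 0.0509 by edgeR. The call was also made in the VPM (-0.50, adjusted p = 0.0657), and in the MGv (-0.47, adjusted p = 0.0681), and not in the dLG (-0.32, adjusted p = 0.165). The regional call was lost without cortex replicate a, b, or c (adjusted p = 0.169, 0.122, and 0.217), that of the VPM in 6 and that of the MGv in 8 of the 17 fits with 1 library left out.

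*Slc38a3* encodes SNAT3, the system N carrier through which astrocytes release glutamine, and it was lower in the thalamus but less so in the VPM. The gene lies on chromosome 9 (107650634 to 107669530, minus strand). Cortical replicates a to d held 746, 854, 908, and 768 CPM, and VPM replicates a to d 455, 465, 640.2, and 562 CPM. The dLG held 253, 403, 502, 263, and 319 CPM and the MGv 304, 427, 325, and 302 CPM. All thalamic libraries lay below the cortex, and all VPM libraries above all MGv libraries. Between regions the log2FC was -1.03 ± 0.19 SE, adjusted p = 0.00162 by edgeR. By nucleus it was -1.24 in the dLG (adjusted p = 1.35e-04), -1.27 in the MGv (adjusted p = 2.70e-04), and -0.63 in the VPM (adjusted p = 0.0574), which was not called without cortex replicates b or c or VPM replicates a or b (adjusted p from 0.126 to 0.163). Per kb of exon, the ratio of *Slc38a3* to *Glul* was 1.59 ± 0.218 in the cortex, 1.96 ± 0.496 for the dLG, 4.25 ± 1.06 for the VPM, and 2.41 ± 0.819 for the MGv (mean ± SD).

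*Slc38a5* encodes SNAT5, the second system N carrier, and had few reads in most libraries (chromosome X, 8271133 to 8280179, plus strand). It was counted at 1 to 35 reads in the cortical libraries and at 0 reads in dLG replicates b, c, and e and MGv replicate a. The highest thalamic library was dLG replicate a with 149 reads (6.98 CPM), and the next highest VPM replicate d with 53. The same dLG library held the highest sum of endothelial markers (49.2 CPM, next highest 24.9) and the most *Rgs5*, a pericyte gene (21.8 CPM). Its sum of all markers of mural cells and fibroblasts, *Rgs5* among them, was 42.1 CPM. That was the highest of the thalamic libraries but below all cortical ones (54.2 to 94.0 CPM). Its sum of microglial markers was also the highest of all libraries (91.9 CPM). The part of vascular cells or microglia in the count of *Slc38a5* was not tested. Libraries of the dLG with similar totals thus held from 0 to 149 reads, though replicate c, at 0 reads, also had the fewest genes detected of all libraries. No difference of *Slc38a5* between groups passed edgeR’s test (region log2FC of 0.33, 95% interval -2.20 to 2.87, and -0.54 to 0.66 with 1 library left out at a time).

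*Slc7a11* encodes xCT, which exports glutamate in exchange for cystine. On chromosome 3 (49892526 to 50443614, minus strand) it was counted at 44.3 to 56.6 CPM in the cortex. The dLG held 45.6, 58.8, 39, 40.9, and 90.8 CPM, the VPM 22.5, 41.6, 37.6, and 31.6 CPM, and the MGv 46.1, 46.8, 59.4, and 50.4 CPM. The regions overlapped (log2FC of -0.08, 95% interval -0.56 to 0.40, adjusted p = 0.893 in edgeR’s test). All VPM libraries were below all cortical and all MGv libraries, but the differences did not pass the test (log2FC of -0.58, adjusted p = 0.19, and -0.64, adjusted p = 0.155).

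Against the cortex, 5 genes (*Slc1a2*, *Slc1a3*, *Slc1a4*, *Glul*, and *Slc38a3*) were called lower in each of the 3 nuclei, and *Glud1* also in the VPM and the MGv. The dLG thus had 5 of 10 lower, where 9.04% of all genes tested were, the VPM 6 of 10 (5.44%), and the MGv 6 of 10 (7.51%). In the VPM 1 of 10, *Slc1a1*, was higher, where 3.56% of genes were. In the dLG 5 of 10 lay below the cortex without overlap (7.26% of genes), in the VPM 6 of 10 (9.32%), *Slc7a11* among them, and in the MGv 5 of 10 (10.5%). The 3 comparisons share the 4 cortical libraries and do not count as separate evidence.

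**Figure D3:**
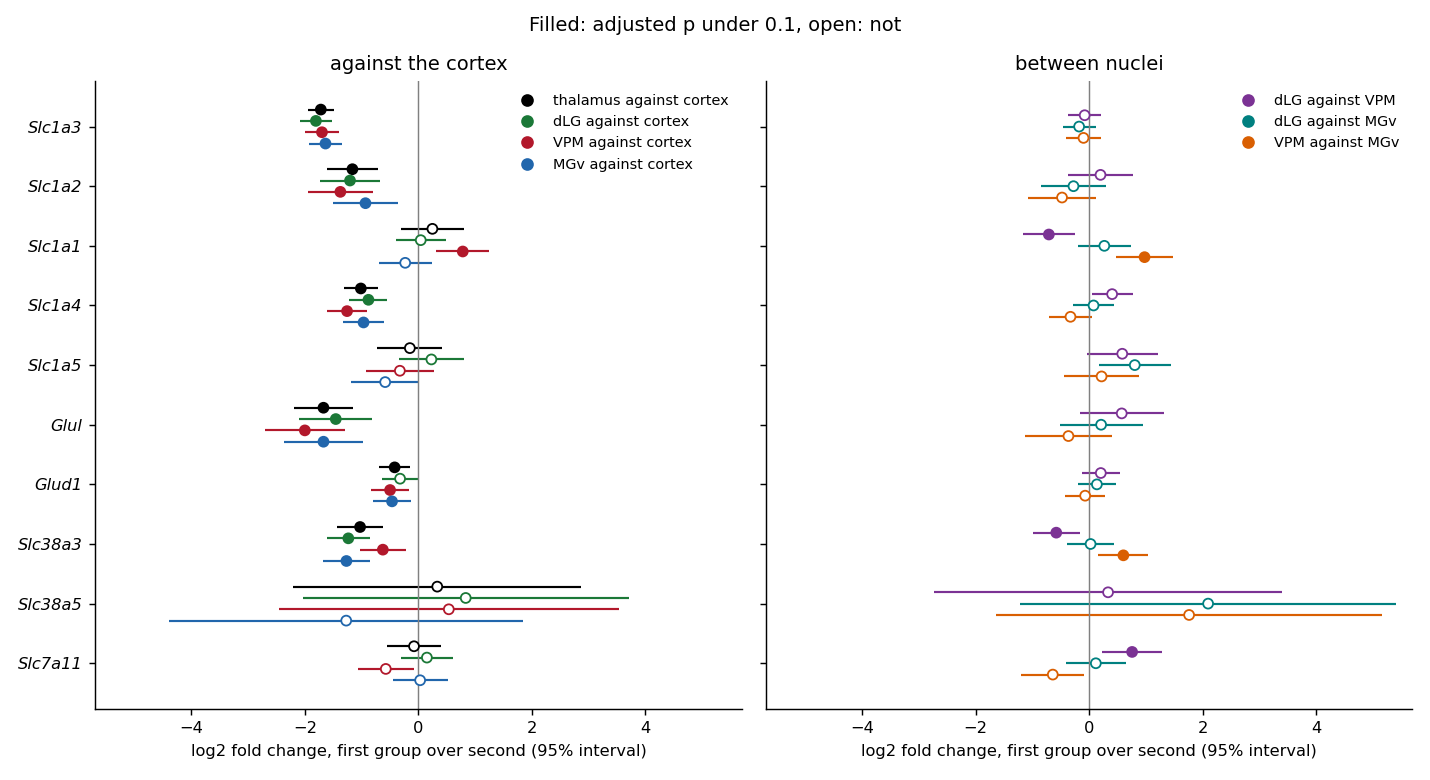
Log2 fold change of each gene with its 95% interval, left for the thalamus and each nucleus over the cortex and right for pairs of nuclei, with filled points for an adjusted p under 0.1. *Slc1a3* sits between -1.81 and -1.64 in all comparisons with the cortex and near 0 between nuclei, while *Slc1a1*, *Slc38a3*, and *Slc7a11* have filled points between nuclei.

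Among the nuclei the carriers differed mainly in the VPM. *Slc1a1* and *Slc38a3* were higher in the VPM than in both other nuclei, and *Slc7a11* was lower there than in the dLG. In the dLG against the VPM, edgeR’s fit of the 13 thalamic libraries called 2 of 10 genes lower (3.16% of 17319 genes tested) and 1 of 10 higher (6.48%). These were *Slc1a1* (-0.71, adjusted p = 0.0742), *Slc38a3* (-0.58, adjusted p = 0.0993), and *Slc7a11* (0.76, adjusted p = 0.0941), each with overlapping libraries and an adjusted p above 0.05. In the VPM against the MGv 2 of 10 were higher (4.53% of genes), *Slc1a1* by 0.98 ± 0.23 SE (adjusted p = 0.0265) and *Slc38a3* by 0.60 ± 0.21 SE (adjusted p = 0.095). Both lay without overlap above the MGv (11.7% of genes), and *Slc7a11* without overlap below it (9.29%). No gene of the 10 was called between the dLG and the MGv, where 0.647% of genes were in either direction. There, 1 of 10, *Slc1a5*, had an unadjusted p under 0.05 in edgeR, as did 951 of the 17319 genes tested, and DESeq2 called 0.

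These calls between nuclei are near the threshold. Without 1 library at a time, the count for the dLG against the VPM ran from 0 to 3, and was 0 without dLG replicates b or e or VPM replicates a, c, or d, and 1 without MGv replicates a, c, or d. For the VPM against the MGv it ran from 1 to 3, and was 1 without dLG replicate b, without MGv replicates a, c, or d, or without any VPM library. The difference of *Slc1a1* between the VPM and the MGv kept its call in all 13 of these fits (0.84 to 1.14). For *Slc1a3* the intervals between nuclei were narrow, -0.37 to 0.21 for dLG over VPM, -0.47 to 0.12 for dLG over MGv, and -0.41 to 0.21 for VPM over MGv. For *Glul* they were wide, for example -1.13 to 0.41 for VPM over MGv.

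Markers of the oligodendrocyte lineage were mixed between the VPM, where *Slc1a1* was high, and the MGv. Of the 9 markers 3 were called higher and 2 lower in the VPM, and 4 were not called. Summed over all 9 they gave 10358, 6792, 9494, and 8602 CPM in VPM replicates a to d and 6498, 8964, 6610.3, and 8734 CPM in MGv replicates a to d, which overlapped, and MGv replicate b had the highest sum but the lowest *Slc1a1* of the MGv. *Mbp*, *Mag*, and *Mog*, encoding myelin proteins, were the higher ones (log2FCs of 1.39, 1.5, and 3.54), while the precursor genes *Cspg4* and *Pdgfra* were lower (-1.11 and -0.43). The 3 myelin genes gave 2174, 589, 1184, and 1631 CPM in VPM replicates a to d and 508, 383, 403, and 764 CPM in MGv replicates a to d. The cortex gave 515, 667, 494, and 808 CPM and the dLG 1007, 502, 693, 1299.5, and 1081 CPM. VPM replicate a was highest and VPM replicate b lowest of the VPM in both this sum and *Slc1a1*, but VPM replicate d was above VPM replicate c in the sum and below it in *Slc1a1*. In the dLG replicate d was highest in both, while replicate e was second highest in the sum and second lowest in *Slc1a1*. The part of oligodendrocytes in the level of *Slc1a1* was not tested, and the 3 genes were picked from the marker list after their values were seen. They were picked as higher in the VPM than in the MGv, so a likeness to *Slc1a1* between these nuclei was set by the choice.

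**Figure D4:**
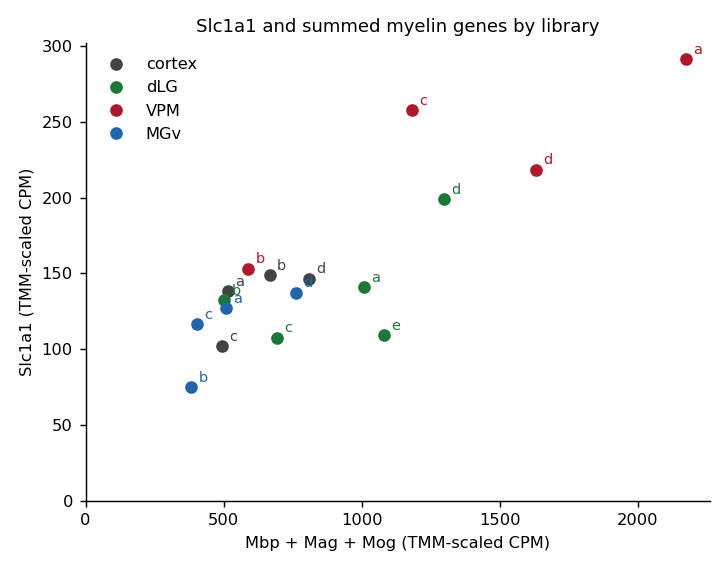
Level of *Slc1a1* against the summed level of *Mbp*, *Mag*, and *Mog* (both TMM-scaled CPM, linear axes from 0), 1 point per library, coloured by group and lettered by replicate. The 3 genes are those of the 9 lineage markers that were called higher in the VPM than in the MGv, where 2 others were called lower. VPM replicate a, with 291 CPM of *Slc1a1* and 2174 CPM of myelin genes, and MGv replicate b, with 74.9 and 383 CPM, are the extremes.

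In CPM per kb of exon, the order of the 10 genes changed between regions below the first place. *Slc1a3* was highest in all groups, at 613 ± 60.3 in the cortex (SD, n = 4) and 186 ± 24.3 in the thalamus (SD, n = 13). In the cortex *Slc1a4* (211 ± 20.8), *Slc38a3* (155 ± 14.2), *Glud1* (149 ± 21.6), *Glul* (98.4 ± 7.75), *Slc1a2* (65.9 ± 15.3), and *Slc1a1* (16.2 ± 2.65) followed. Of these neighbours only *Slc38a3* and *Glud1* overlapped. In the thalamus the second place went to *Glud1* (112 ± 17.6), ahead of *Slc1a4* (105 ± 21.9) and *Slc38a3* (76.1 ± 22.8), with overlapping libraries. *Glul* (30.9 ± 13.6), *Slc1a2* (29.4 ± 9.28), and *Slc1a1* (19.2 ± 7.74) came next and overlapped, and in the VPM *Slc1a1* (27.9 ± 7.19) reached *Slc1a2* (25.4 ± 4.71). *Slc1a5*, *Slc7a11*, and *Slc38a5* were the lowest in all groups, at or under 4.89 CPM per kb on average.

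Set against the astrocyte markers, the regional differences of the 6 called genes became smaller. Per 1000 CPM of the 10 summed markers, *Slc1a3* was 607 ± 64.5 in the cortex and 211 ± 38.4 in the thalamus, *Glul* 37.9 ± 2.69 and 14 ± 6.89, and *Slc38a3* 95 ± 10.3 and 54 ± 17.8, and these did not overlap. *Slc1a2* (100.03 ± 22.4 and 53.1 ± 22.9), *Slc1a4* (96.4 ± 12.2 and 55.1 ± 14.9), and *Glud1* (72.8 ± 9.5 and 62.9 ± 14.2) did. The share of all genes without overlap on this scale is not given here, so these counts have no background. For *Slc1a3* the ratio of the cortical to the thalamic mean was 2.87 on this scale and 3.3 in CPM. Among the uncalled genes it was 0.71 and 0.84 for *Slc1a1* and 0.71 and 0.80 for *Slc38a5*. For *Slc1a5* it was 0.98 and 1.11, and for *Slc7a11* 0.91 and 1.06. Of these uncalled genes all but *Slc1a5* thus differed more between regions on this scale. The scale was chosen after seeing the data, and the *Gfap* of MGv replicate c alone (5525 CPM) weighs on it. The markers also include *Aldoc*, itself lower in the thalamus, and *S100b*, itself higher, and the scale lowered the ratios of all 10 genes.

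The library numbers of the labels fall into series, of which the largest held 10 libraries, 2 of them cortical, and the second 6, again with 2 cortical. Within the largest series, the log2FC of thalamus over cortex was -1.63 for *Slc1a3*, -1.78 for *Glul*, -1.13 for *Slc1a2*, -1.04 for *Slc1a4*, -1.05 for *Slc38a3*, and -0.41 for *Glud1*. Within the second it was -1.82, -1.68, -1.24, -1.17, -1.08, and -0.37. The directions were the same in both series. In the first, 5 of the 6 genes kept their call, and in the second, which holds 6 libraries, 2 did, *Slc1a3* and *Slc1a4*. The share of all genes called within each series is not given here, so these counts have no background. All MGv libraries belong to the largest series, and dLG replicate c, with the fewest genes detected, belongs to neither.

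Other genes of the pathway moved in both directions. Of 54 genes in 8 lists of carriers, enzymes, pumps, and partners, 5 were higher and 7 lower in the thalamus, and their median log2FC was -0.12. Over all 17856 genes tested, 11.4% were called in either direction and 5.93% as lower. Of 11 further glutamine and cystine carriers, 2 were higher, *Slc38a1* (0.73, adjusted p = 0.00286), a system A glutamine carrier, and *Slc38a4* (3.85, adjusted p = 0.0101). Another 2 were lower, the lysosomal carrier *Slc38a7* (-0.71, adjusted p = 0.00719) and the large neutral amino acid carrier *Slc7a5* (-0.50, adjusted p = 0.0905) in edgeR’s test. *Slc38a4* was scarce, with 0.0432 to 0.58 CPM in the cortex, 0.454 to 4.63 in the dLG, 0.57 to 5.39 in the MGv, and 5.19 to 12.2 in the VPM. Its highest cortical library lay above the lowest of the dLG and the MGv and below all of the VPM. *Slc1a6*, which encodes EAAT4, rose by 1.32 on the log2 scale (adjusted p = 0.00164), from 8.26 to 9.62 CPM in the cortex to 10.3 to 38.1 CPM in the thalamus, without overlap. *Slc1a7* was not analysed here.

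Of 12 enzymes of glutamate and glutamine, 1 was lower, *Oat* (-0.54, adjusted p = 0.0145), which makes glutamate semialdehyde from ornithine, and 11 were not called. Of 6 subunits of the sodium pump, whose gradient drives uptake, 1 was lower, *Atp1b1* (-1.5, adjusted p = 6.53e-04), at 428 to 488 CPM in cortical libraries and 56.1 to 298 CPM in thalamic ones. Of the 5 mitochondrial carriers none was called. Among 3 vesicular glutamate transporters, which load synaptic vesicles in neurons, *Slc17a6* was higher (3.01, adjusted p = 1.93e-04), and 2 of the 10 neuronal markers were higher and 1 lower in the same comparison. Of 4 genes listed as binding partners of the carriers, *Slc9a3r1*, a PDZ scaffold, was lower (-0.48, adjusted p = 0.0247). Of 12 genes of the *Atf4* and *Nfe2l2* programmes, which are known to raise *Slc7a11*, *Sesn2* was higher (0.48, adjusted p = 0.0905), and *Gclm*, a subunit of glutamate-cysteine ligase (-0.64, adjusted p = 1.71e-04), and *Nfe2l2* itself (-0.47, adjusted p = 0.0112) were lower.

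**Figure D5:**
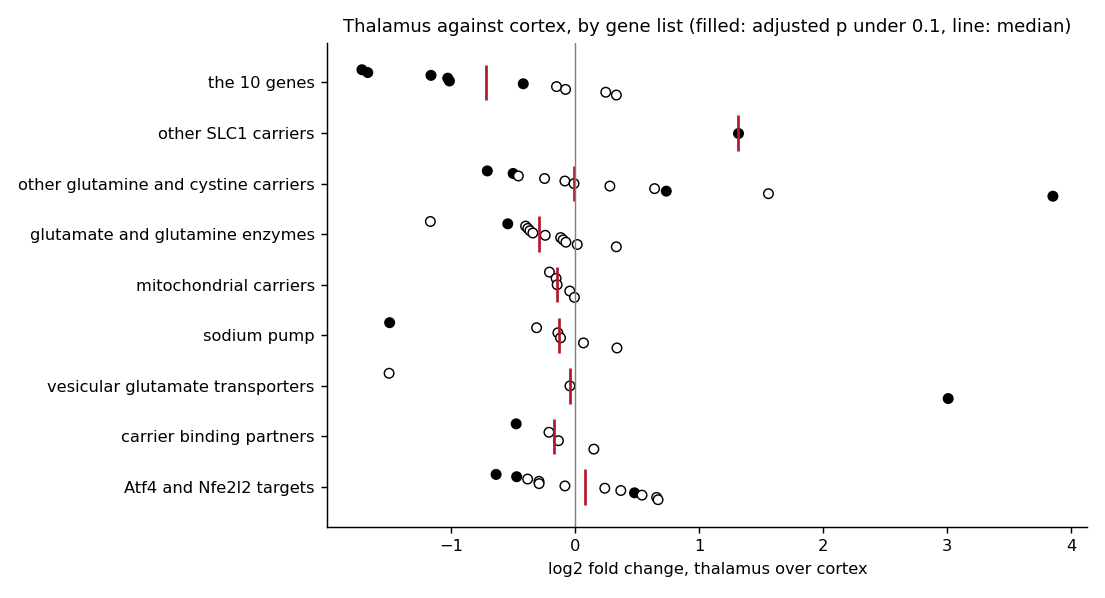
Log2 fold change of thalamus over cortex for the 10 genes and for the 8 other lists (1 point per gene, filled where the adjusted p was under 0.1, red line at the list's median). The 10 genes have a median of -0.72 with 6 filled points, all below 0, and the other lists have medians between -0.29 and 0.08 except the single gene *Slc1a6* at 1.32.

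The genes whose levels followed a member most closely over the 17 libraries (Pearson’s r of log2 CPM with a pseudocount of 0.5) are given as a description, since the regions separate the libraries and all share the same normalization. For *Slc1a3* they were *Ezr* (0.982), which encodes ezrin, *9130024F11Rik* (0.978), and *Plb1* (0.977). Over the 13 thalamic libraries alone these were 0.827, 0.613, and 0.543, and the last 2 genes were at 0.116 and 0.011 CPM on average there. For *Slc1a2* they were *Pmm1* (0.937, and 0.941 in the thalamus), *Slc7a2* (0.91 and 0.815), and *Ctnnbip1* (0.909 and 0.733). For *Glul* they were its processed copy *Glns-ps1* (0.973 and 0.968), *Creb5* (0.946 and 0.886), and *Pantr1* (0.927 and 0.883). Within the thalamus *Glul* and *Slc1a2* followed each other (r of 0.788 over 13 libraries), with dLG replicate e and MGv replicate b among the 3 highest for both, while *Slc1a3* followed neither (r of -0.0079 with *Glul* and 0.21 with *Slc1a2*).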

How the data were processed

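Astrocytes were sorted by flow cytometry after papain dissociation, and libraries were made from their RNA with the SMARTer Ultra Low v4 and NEBNext kits and sequenced as single reads. The counts are raw read counts per Ensembl gene as deposited by the authors, made with STAR 2.7.0d and featureCounts (Subread 1.6.4) on mm10 with Ensembl release 95, with SAMtools 1.9 and FastQC 0.11.7 also named in the submitters’ processing notes. Whether strand was used in counting is not given in the sources used here. Gene names, exon lengths, and coordinates came from a GRCm38 annotation of Ensembl release 96, which matched 26548 of 26556 identifiers.

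Groups followed the labels. Genes that passed filterByExpr were fitted with edgeR 4.0.16 (R 4.3.3; TMM, robust quasi-likelihood), the thalamus against the cortex in a fit of 2 groups, each nucleus against the cortex in a fit of 4 groups, and pairs of nuclei in a fit of the 13 thalamic libraries. Adjusted p-values are Benjamini-Hochberg values over all genes tested, called under 0.1, and SEs are the log2FC over the square root of F. The fits were run on simulated counts with the same dispersion for all genes. That checked the working of the fits and not their error rate in these data. Alternatives were DESeq2 1.42.0, its size factors in edgeR, a threshold of 0.05, no filter, at least 10 counts in every library, a block by replicate letter, a covariate for the series of library numbers, and fits without each library in turn. Beside the 9 markers of the oligodendrocyte lineage used, 1 further marker of that list was left out of all values and is not reported here. The 10 genes and all lists were chosen with earlier results of these data known. Named were the 10 genes, the called genes of the pathway lists, markers that moved with a result, and for *Slc1a2*, *Slc1a3*, and *Glul* the 3 genes of highest r. Totals of 18213687 to 50366363 counts leave 3 counts at 0.0596 to 0.165 CPM. No libraries of 1 group agreed within sampling noise (at least 17.8 chi-square per gene). The labels do not say how the pools relate to litters, so p-values measure only the spread between these libraries.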

Additional observations from a re-analysis of the deposited data

Results flagged for a closer look

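*Slc1a4* was at 708 CPM in cortex replicate a, far below the other 3 cortical libraries for the spread of the group, and this library is also the deepest. *Slc38a5* was at 6.98 CPM in dLG replicate a, far above the other 4 dLG libraries. Of 40 groups of libraries checked in this way 2 stood out, where chance gives about 1 in 20.

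The effects of the nuclei against the cortex differed for 3 genes in edgeR’s fit of 4 groups. Between the dLG and the VPM, the difference of the log2FCs was 0.72 (adjusted p = 0.0567) for *Slc7a11*, -0.61 (adjusted p = 0.0489) for *Slc38a3*, and -0.74 (adjusted p = 0.0409) for *Slc1a1*. Between the VPM and the MGv it was 0.64 (adjusted p = 0.0447) for *Slc38a3* and 1.01 (adjusted p = 0.0112) for *Slc1a1*. The cortical libraries cancel in these differences, so they are the nucleus comparisons of the report with the spread taken over all 17 libraries.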

How the results depend on the processing

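Of 1070 values with 1 library left out, 981 kept their direction and side of the threshold, 60 lost the call, 3 gained it, and 26 turned direction, and of 543 values under other settings these were 507, 23, 5, and 8. The count of the 10 genes called was 5 to 6 for thalamus against cortex with 1 library left out, 5 in all such fits for the dLG, 4 to 8 for the VPM, 4 to 6 for the MGv, 0 to 3 for dLG against VPM, 0 in all for dLG against MGv, and 1 to 3 for VPM against MGv. The VPM count was 4 without cortex replicate c or VPM replicate a, and the MGv count 4 without cortex replicate c or MGv replicate d. Within the second library series, chosen after seeing the data, 2 genes were called between regions. For dLG against VPM the count was 0 at an adjusted p under 0.05, 1 without the filter, and 1 with the library series as a covariate. For VPM against MGv it was 1 at 0.05, 1 with DESeq2’s size factors, and 1 without the filter. The cause was not tested, and the shares of all genes called in these fits are not given here.

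The replicate letters showed no clear pairing of the libraries. Over 24 pairs of the same letter in 2 groups, deviations correlated between -0.173 and 0.266, with 6 over 0.1, and 4 libraries correlated best with their own letter. For letter d they ran from 0.0261 to 0.256. No chance level was worked out, so this check cannot tell whether groups shared pools. With the replicate block the counts were 6 for thalamus against cortex, 6 for the dLG, 8 for the VPM, and 7 for the MGv. They were 2 for dLG against VPM, 0 for dLG against MGv, and 3 for VPM against MGv. The shares of all genes called with the block are not given here. The block turned the log2FC of *Slc7a11* to -0.11 for the dLG and to -0.16 for dLG against MGv, and for dLG against VPM that of *Slc1a2* to -0.025 and of *Slc38a5* to -0.74. None of these was called.

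The library series turned uncalled values too, *Slc7a11* between regions to 0.035 within the second series, and with the series as a covariate *Slc1a5* in the dLG to -0.056 and, for dLG against MGv, *Glul* to -0.031 and *Slc38a3* to -0.0046. Values that turned with a library left out were uncalled. Between regions *Slc38a5* ran from -0.54 to 0.66 and *Slc7a11* from -0.17 to 0.019. In the dLG against the cortex *Slc1a1* ran from -0.13 to 0.14, *Slc1a5* from -0.058 to 0.38, *Slc38a5* from -2.27 to 1.19, and *Slc7a11* from -0.076 to 0.25. *Slc38a5* ran from -0.14 to 0.90 in the VPM and *Slc7a11* from -0.025 to 0.14 in the MGv. For dLG against VPM *Slc1a2* ran from -0.0013 to 0.35 and *Slc38a5* from -2.80 to 0.98. For dLG against MGv *Slc1a4* ran from -0.037 to 0.18, *Slc38a3* from -0.14 to 0.16, *Slc38a5* from -1.01 to 2.53, and *Slc7a11* from -0.14 to 0.22. For VPM against MGv *Slc1a3* ran from -0.15 to 0.020, *Glul* from -0.52 to 0.14, and *Glud1* from -0.20 to 0.013. *Slc38a5* was counted at 0 to 149 reads per library, with a wide spread between libraries of similar totals.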
